A study of Macaca radiata with 6 samples.

Results

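The genes of the BCL2, caspase and tumor necrosis factor (TNF) families were examined in the corpus luteum (CL) of bonnet monkeys after withdrawal of LH support. A gene entered the set by its symbol: names that begin with BCL2, BIRC or CASP and a digit, TNFSF or TNFRSF, together with MCL1, BAX, BAK1, BID, BBC3, PMAIP1, APAF1, XIAP, FAS, FASLG, CYCS and DIABLO. Of the 14132 genes that had a probe set with a single symbol, 55 met this rule, through 105 probe sets, and each was read at its brightest probe set over all 6 arrays. The rule used no measured value other than the brightness that picked the probe set. BID, CYCS, XIAP, BIRC5, BCL2L2, CASP9 and TNFRSF1A had no probe set of their own single symbol in the annotation used here and were not analysed here.

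The CET group comprised 3 CL from adult female bonnet monkeys that had received a single s.c. injection of Cetrorelix, a GnRH receptor antagonist, at 150 µg/kg BW on day 7 of the luteal phase, and CL were taken 24 h later. The VEH group comprised 3 CL collected at the same interval after an injection of the vehicle, 5.25% glucose. CL of both groups are described as coming from the same monkeys, but no label pairs them, and each labelled sample was read on an Affymetrix rhesus macaque array, so the probes were designed for a related species. All values below are quantile-normalized log2 signals, a fold change is the CET mean minus the VEH mean on that scale, and a probe set is called dim when its mean log2 signal lies below 7.43, the 40th percentile.

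Cells die by apoptosis along either of the routes that these families run. In the mitochondrial route, BH3-only proteins free BAX and BAK1 from BCL2, MCL1 and related guardians, cytochrome c leaves the mitochondrion and APAF1 assembles a platform that activates the executioner caspases, which the inhibitors of apoptosis (BIRC proteins) hold back. In the receptor route, a ligand of the TNF superfamily binds a receptor that carries a death domain, such as FAS, and caspase-8 is activated directly. Many other TNF ligands and receptors are not part of this direct route, and a number of them steer immune cells. Luteal regression in primates is known to involve both cell death and immune cells.

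In the limma comparison of CET with VEH, 0 of 52707 probe sets had an adjusted p under 0.05 and 2840 had an unadjusted p under 0.05, and the smallest adjusted p was 0.827. Replicates of a group had a median SD of 0.801 (log2) over the 55 genes and 0.846 over all probe sets. The arrays differed in RNA quality: the ratio of 3′ to 5′ signal of GAPDH was 3.03 to 142.9 in CET, the highest in CET replicate 2, and 1.79 to 7.31 in VEH. Over GAPDH, ACTB and EF1A, the mean log2 ratio was 2.67, 5.92 and 1.12 in CET replicates 1, 2 and 3. It was 3.54, 0.61 and 1.16 in VEH replicates 4, 5 and 6, so VEH replicate 4 exceeded CET replicates 1 and 3. Every CET array had a lower mean rank correlation with the other CET arrays than with the VEH arrays. These were 0.664 and 0.756 in CET replicate 1, where they differed most, 0.710 and 0.727 in CET replicate 2, and 0.709 and 0.733 in CET replicate 3. Of 9 luteal steroidogenic markers, 6 had a probe set and all 6 lay above the dim limit, so that defining transcripts of luteal cells were measured in both groups, with a summed signal of 33999.8 to 81113 in CET and 68175 to 104871 in VEH. Since whole pieces of CL were measured, fewer cells of a type and less RNA per cell cannot be told apart.

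Across the 55 genes, the CET mean was above the VEH mean in 25 and below it in 30. This share of lower means, 54.5%, stood beside 54.7% over all genes. At the brightest probe sets, none of the 55 lay under an unadjusted limma p of 0.05, against 5.03% of all genes. Their adjusted p in limma was 0.827 to 0.99. The median fold change was -0.17 for the 55 genes and -0.08 for all genes. Means differed by over 1.5-fold in 28 of the 55, or 50.9%, beside a background of 42.6%. The CET and VEH arrays did not overlap in 9 of the 55, or 16.4%, beside 11.5% of all genes. In 7 of these 9, all CET arrays lay above all VEH arrays (12.7%, background 5.07%), and in 2 they lay below (3.64%, background 6.45%). An exact permutation test over 3 against 3 arrays cannot go below p = 0.1, so none was used to call a gene.

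The guardians of the BCL2 family had no common direction. MCL1, a short-lived guardian that binds BAK1 and BH3-only proteins, had log2 signals of 11.19, 12.04 and 12.26 in CET replicates 1, 2 and 3, against 11.21, 10.16 and 11.21 in VEH replicates 4, 5 and 6. CET replicates 2 and 3 lay above every VEH array and CET replicate 1 lay among them. Its fold change was 0.97 ± 0.47 (SE, limma, 3 against 3; adjusted p = 0.827), and it was 1.29 without CET replicate 1, 0.62 without VEH replicate 5 and 0.36 over the mean of both its probe sets. BCL2, the founding member of the family, read 7.41, 9.92 and 8.28 in CET, against 6.74, 9.31 and 8.02 in VEH. Both groups spread widely, with an SD of 1.27 in CET and 1.29 in VEH, and the 95% interval of the fold change of 0.51 ran from -1.29 to 2.31. BCL2L1, which encodes BCL-xL, read 7.40, 10.17 and 9.76 in CET, against 9.42, 7.30 and 9.61 in VEH. Each group held a single low array, and the fold change of 0.33 ± 0.82 turned to -0.41 when VEH replicate 5 was left out. The other probe sets of BCL2L1 had -0.78 and -0.60 above the dim limit and 0.47 at a dim one. BCL2A1, a guardian best known from blood cells, was dim throughout, with 3.59, 4.47 and 4.05 in CET, against 3.85, 6.49 and 6.29 in VEH. VEH replicate 4 lay among the CET arrays, and the fold change was -1.51 ± 0.91. BCL2L10, another guardian, had a fold change of 0.17.

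The effectors BAX and BAK1, which perforate the outer mitochondrial membrane, had nearly equal means in both groups. BAX read 9.86, 6.67 and 7.75 in CET, against 9.27, 8.47 and 6.99 in VEH. The groups overlapped, and the 95% interval of the fold change of -0.15 ran from -2.07 to 1.77. BAK1 read 10.14, 9.18 and 8.12 in CET, against 9.73, 10.03 and 8.18 in VEH. Its groups overlapped almost fully, with a fold change of -0.17 ± 0.66.

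Among the BH3-only genes, whose products unleash BAX and BAK1, BBC3 (PUMA) and BCL2L11 (BIM) had the higher mean in CET and PMAIP1 (NOXA) the lower. BBC3 read 10.73, 10.58 and 9.79 in CET, against 10.24, 9.57 and 9.34 in VEH. CET replicates 1 and 2 exceeded every VEH array and CET replicate 3 did not, and the fold change was 0.65 ± 0.47. BCL2L11 read 9.37, 9.74 and 10.39 in CET, against 9.27, 9.59 and 9.24 in VEH. The groups overlapped, since CET replicate 1 lay below VEH replicate 5, and the fold change was 0.47 ± 0.47, or 0.19 without CET replicate 3. PMAIP1 read 8.55, 5.96 and 9.03 in CET, against 7.88, 8.66 and 8.56 in VEH. The fold change of -0.52 rested on CET replicate 2, whose 3′ to 5′ ratio of GAPDH was 142.9, and was 0.42 without it.

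Among the less studied BCL2 relatives, BCL2L12, which was left out of both death classes, stood furthest apart. It read 7.57, 6.66 and 7.29 in CET, against 8.55, 8.28 and 8.63 in VEH. All CET arrays lay below all VEH arrays by at least 0.71, the CET mean of 7.17 was under the limit for dim probe sets, and the fold change was -1.32 ± 0.62 (limma, unadjusted p = 0.0561, the smallest among the 55, and adjusted p = 0.827). Leaving out any array kept it between -1.51 and -1.06. BCL2L13, a mitochondrial relative counted as pro-death, read 10.38, 9.32 and 8.76 in CET, against 10.08, 10.75 and 10.45 in VEH. Every VEH array exceeded CET replicates 2 and 3 but not all exceeded CET replicate 1, and the fold change was -0.94 ± 0.51, or -0.58 without CET replicate 3. BCL2L14, also counted as pro-death, read 9.04, 9.09 and 9.35 in CET, against 8.92, 8.27 and 8.56 in VEH. The groups were separated by only 0.12, and the fold change was 0.58 ± 0.50. BCL2L15 was dim, with a fold change of -0.70. In all, the CET mean was the higher in 7 of the 14 BCL2 family genes and the lower in 7, with a median fold change of 0.01.

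**Figure D1:**
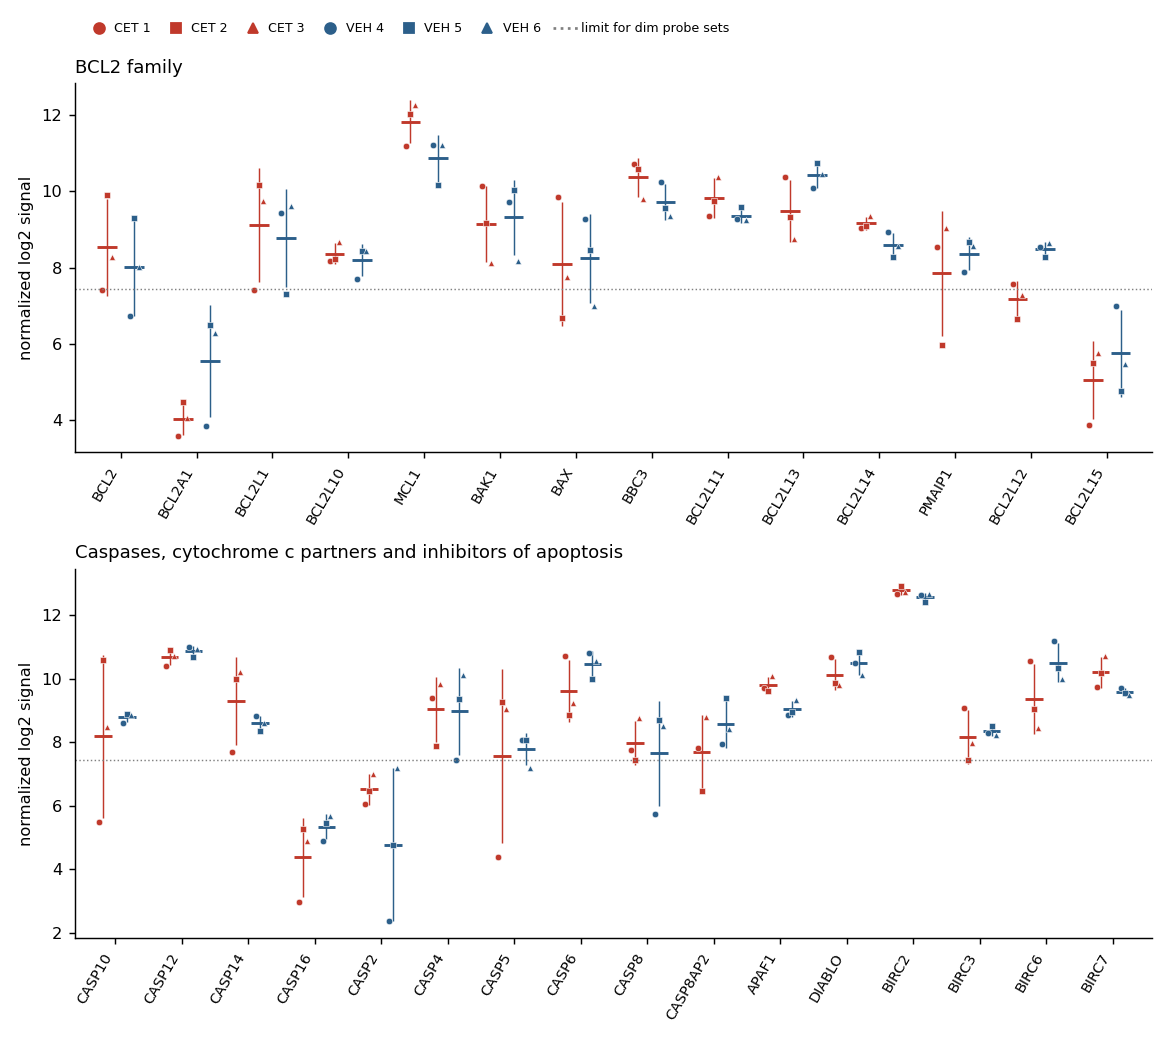
Normalized log2 signal of each array for the 14 BCL2 family genes (top) and for the caspases, cytochrome c partners and inhibitors of apoptosis (bottom), CET in red left of VEH in blue, with the group mean (bar), the SD (line, n = 3) and the limit for dim probe sets at 7.43 (dotted). At these probe sets BCL2L12 lies lower and APAF1, BCL2L14, BIRC2 and BIRC7 higher in every CET array than in any VEH array. The gaps of BIRC2 and BIRC7 are only 0.012 and 0.011, and BAX, BAK1 and BCL2 overlap.

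Downstream of the mitochondrion, APAF1, the scaffold on which cytochrome c activates caspases, had the higher mean in CET at its brightest probe set. It read 9.70, 9.61 and 10.09 in CET, against 8.86, 8.95 and 9.34 in VEH. Every CET array lay above every VEH array, by at least 0.27, with an SD of 0.26 in both groups. The fold change was 0.75 ± 0.46 (95% interval -0.25 to 1.75; limma, adjusted p = 0.827) and lay between 0.61 and 0.90 whichever array was left out. Over the mean of all probe sets of APAF1 the fold change was 0.22, and another bright probe set had -0.21. DIABLO, the mitochondrial protein that neutralizes inhibitors of apoptosis, read 10.70, 9.88 and 9.81 in CET, against 10.50, 10.85 and 10.11 in VEH. CET replicates 2 and 3 were the lowest of the 6 arrays, and the fold change was -0.35 ± 0.45.

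Of 10 caspases and caspase partners, the CET mean was higher in 4 and lower in 6, the groups of all 10 overlapped, and the median fold change was -0.21. CASP8, the initiator of the receptor route, read 7.75, 7.45 and 8.77 in CET, against 5.75, 8.69 and 8.52 in VEH. The fold change of 0.34 ± 0.85 depended on the low VEH replicate 4 and was -0.62 without it. With a covariate for the 3′ to 5′ ratio it was 1.04. CASP6, an executioner, read 10.71, 8.85 and 9.25 in CET, against 10.81, 9.99 and 10.55 in VEH. Every VEH array exceeded CET replicates 2 and 3, and the fold change was -0.85 ± 0.55, or -1.40 without CET replicate 1 and -0.47 when CET replicate 2 was left out. CASP2, an initiator linked to stress and DNA damage, was dim, with 6.06, 6.48 and 7.01 in CET, against 2.37, 4.77 and 7.18 in VEH. Its fold change of 1.74 ± 1.13 was the largest positive value among the 55, and the VEH arrays alone spanned more than that. CASP10, a relative of CASP8, read 5.50, 10.58 and 8.49 in CET, against 8.62, 8.90 and 8.86 in VEH. The VEH arrays were tight and the CET arrays fell on both sides of them, so that the fold change of -0.60 was 0.74 without CET replicate 1. CASP8AP2, a binding partner of CASP8, had a fold change of -0.88 ± 0.73. It was -0.27 without CET replicate 2 and -0.21 with a covariate for the 3′ to 5′ ratio.

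The caspases of inflammation and skin were not counted as death genes. CASP12, an inflammatory caspase by its family branch, read 10.40, 10.90 and 10.72 in CET, against 11.00, 10.70 and 10.94 in VEH. The groups overlapped, with a fold change of -0.21 ± 0.40. CASP5, another of this branch, read 4.40, 9.28 and 9.04 in CET, against 8.08, 8.08 and 7.21 in VEH. CET replicate 1 lay below and the other CET arrays above all VEH arrays, and the fold change of -0.22 was 1.37 without CET replicate 1. CASP14, known from keratinization of the epidermis, showed the same order of arrays, with 7.70, 10.004 and 10.20 in CET, against 8.83, 8.37 and 8.60 in VEH. Its fold change was 0.70 ± 0.68, with 1.503 without CET replicate 1 and 0.25 without CET replicate 3. CASP4, also inflammatory, had a fold change of 0.06, and CASP16, which was dim, of -0.97.

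The 4 inhibitors of apoptosis divided evenly, 2 with a higher and 2 with a lower mean in CET. BIRC2 (cIAP1), a ubiquitin ligase of TNF receptor signaling, read 12.67, 12.92 and 12.74 in CET, against 12.64, 12.43 and 12.66 in VEH. The groups were separate by a gap of only 0.012, the fold change was 0.20 ± 0.37, and it was -0.22 without normalization between arrays and -0.42 with array medians subtracted. BIRC7 (livin) read 9.73, 10.17 and 10.71 in CET, against 9.72, 9.55 and 9.48 in VEH. It too was separate by a bare 0.011, and the fold change was 0.62 ± 0.45. BIRC6, a giant member that also conjugates ubiquitin, read 10.57, 9.06 and 8.45 in CET, against 11.18, 10.36 and 9.98 in VEH. CET replicates 2 and 3 lay below every VEH array, and the fold change of -1.15 ± 0.59 was -1.75 without CET replicate 1 and -0.69 when CET replicate 3 was left out. BIRC3 (cIAP2), the close relative of BIRC2, read 9.10, 7.45 and 7.97 in CET, against 8.28, 8.51 and 8.24 in VEH. The CET arrays fell on both sides of VEH, and the fold change was -0.17 ± 0.62.

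Groups were separate in 4 of the 10 TNF superfamily ligands, beside 11.5% of all genes, and in 2 of the 6 above the dim limit, of which TNFSF10 was higher and TNFSF18 lower in CET. TNFSF10 (TRAIL), a ligand that triggers death through its death domain receptors, read 10.05, 9.66 and 9.45 in CET, against 8.75, 9.11 and 8.43 in VEH. Every CET array exceeded every VEH array at this probe set, by at least 0.34, and the fold change was 0.96 ± 0.48 (limma, unadjusted p = 0.0698 and adjusted p = 0.827). FASLG, the ligand of FAS, known from cytotoxic lymphocytes, was dim, with 7.61, 6.59 and 6.70 in CET, against 5.06, 5.74 and 5.94 in VEH. Only CET replicate 1 reached the limit for dim probe sets, all CET arrays lay above VEH by at least 0.66, and the fold change was 1.39 ± 0.79. TNFSF14 (LIGHT), a ligand of activated T cells, was also dim, with 6.79, 7.12 and 6.94 in CET, against 6.004, 6.20 and 6.15 in VEH. The gap was 0.60 and the fold change 0.83 ± 0.73, where the SE, which limma draws in part from probe sets of like intensity, exceeded the SD of 0.16 in CET and of 0.10 in VEH.

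TNFSF18, the ligand of the T cell costimulator GITR, was the ligand with separate groups in the other direction. It read 11.50, 10.77 and 10.85 in CET, against 11.71, 11.63 and 12.12 in VEH. All CET arrays lay below all VEH arrays, by at least 0.13, and the fold change was -0.78 ± 0.40 (limma, unadjusted p = 0.0777 and adjusted p = 0.827). TNFSF4 (OX40 ligand) read 10.29, 9.85 and 10.75 in CET, against 10.50, 10.70 and 10.77 in VEH, a fold change of -0.36 ± 0.42. Its groups overlapped. TNFSF11 (RANK ligand), known from bone and lymph node development, read 8.71, 10.42 and 10.68 in CET, against 9.21, 8.80 and 9.54 in VEH. CET replicates 2 and 3 exceeded every VEH array, CET replicate 1 lay below all of them, and the fold change was 0.75 ± 0.58, or 0.38 without CET replicate 3. TNFSF13B (BAFF), a survival factor of B cells, had a fold change of -0.57 ± 0.49. The ligands TNFSF15, TNFSF9 and TNFSF8 overlapped between groups, with fold changes of 0.78, -0.66 and 0.05. Of the 10 ligands, 6 had a higher mean in CET and the median was 0.40, whereas of the 6 above the dim limit 3 did and the median was -0.15.

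The receptors had lower means in CET in 10 of 15, a median of -0.20, and no receptor had separate groups. Among those with a death domain, FAS read 7.63, 8.25 and 7.87 in CET, against 7.75, 8.78 and 7.81 in VEH. The fold change was -0.19 ± 0.61. TNFRSF10B, a receptor of TRAIL, was dim on average, with 7.99, 7.76 and 6.04 in CET, against 8.89, 7.46 and 6.16 in VEH. The SD was 1.07 in CET and 1.37 in VEH, and the fold change was -0.24 ± 0.88. TNFRSF10A, the other TRAIL receptor with a death domain, was dim as well, with a fold change of -0.47. TNFRSF21 (DR6) read 10.60, 5.33 and 9.90 in CET, against 8.97, 11.27 and 10.77 in VEH. CET replicate 2, whose 3′ to 5′ ratio of GAPDH was 142.9, was the lowest by far. The fold change of -1.73 ± 1.15 was -0.09 without CET replicate 2 and -0.30 with a covariate for the 3′ to 5′ ratio. TNFRSF25 (DR3) had a fold change of 0.23, and TNFRSF11B (osteoprotegerin), a soluble decoy counted as anti-death, of -0.10.

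TNFRSF12A (Fn14), the TWEAK receptor, which lacks a death domain, had the largest fold change of the 55. It read 11.48, 6.77 and 6.84 in CET, against 10.46, 10.51 and 10.27 in VEH. The VEH arrays lay close together (SD 0.13), CET replicates 2 and 3 lay far below them and CET replicate 1 lay above them. The fold change was -2.05 ± 1.02 (limma, unadjusted p = 0.0686 and adjusted p = 0.827) and was -3.61 without CET replicate 1, -1.26 without CET replicate 2 and -1.29 without CET replicate 3. TNFRSF1B (TNF receptor 2), which signals through TRAF proteins, read 9.70, 8.91 and 8.67 in CET, against 10.35, 9.75 and 9.27 in VEH. Again every VEH array exceeded CET replicates 2 and 3, and the fold change was -0.70 ± 0.51. TNFRSF13B (TACI), a receptor of B cells, read 9.10, 9.60 and 10.002 in CET, against 9.22, 8.29 and 8.98 in VEH. CET replicates 2 and 3 exceeded every VEH array, and the fold change was 0.74 ± 0.51. The remaining receptors, TNFRSF4, TNFRSF13C, TNFRSF14, TNFRSF17, TNFRSF18 and TNFRSF19, had fold changes between -0.72 (TNFRSF18) and 0.75 (TNFRSF13C), with overlapping groups in all 6.

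**Figure D2:**
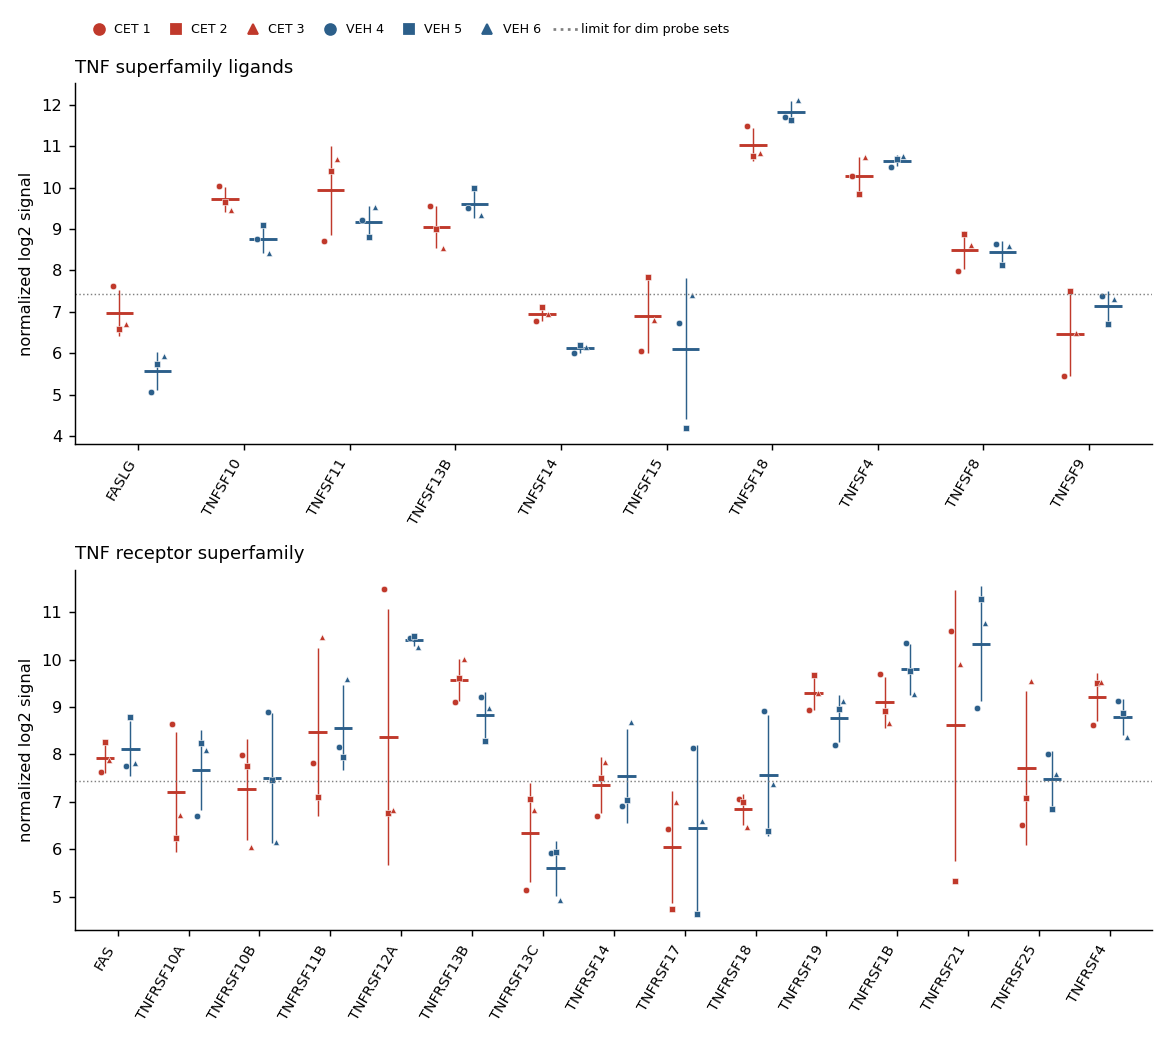
Normalized log2 signal of each array for 10 TNF superfamily ligands (top) and 15 receptors (bottom), CET in red left of VEH in blue, with the group mean (bar), the SD (line, n = 3) and the limit for dim probe sets (dotted). At these probe sets TNFSF10, FASLG and TNFSF14 lie higher and TNFSF18 lower in every CET array than in any VEH array, and CET replicate 1 of TNFRSF12A, at 11.48, is far from the other CET arrays at 6.77 and 6.84.

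In TNFRSF12A, CASP5 and CASP14, CET replicate 1 lay beyond VEH on the side opposite to the other CET arrays. TNFSF11 and BIRC3 showed the same order. Without CET replicate 1, 27 of the 55 genes had separate groups (17 higher and 10 lower in CET), or 49.1%, beside 36.6% of all genes. This count was added after the values were seen. It includes the 9 genes separate with all arrays, and genes such as MCL1 and BIRC6 in which CET replicate 1 lay among the VEH arrays. In the 5 arrays without CET replicate 1, 11 of the 55 lay under an unadjusted limma p of 0.05, or 20.0%, beside 16.3% of all genes. These were MCL1, CASP5, CASP14 and TNFSF11, higher in CET, and BCL2L12, BCL2L13, BIRC6, CASP6, TNFRSF12A, TNFRSF21 and TNFSF18, lower in CET. None passed an adjusted p of 0.05 there. Leaving out CET replicate 2, with the 3′ to 5′ ratio of 142.9, gave 12 separate genes (21.8%, all genes 18.8%) and none under an unadjusted p of 0.05 (all genes 3.72%).

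Pro-death genes were then set against anti-death genes. The 21 pro-death genes had 9 higher and 12 lower means in CET, with a median fold change of -0.17, and the 10 anti-death genes had 6 higher and 4 lower, with a median of 0.19. The difference of these medians was -0.35, but the difference of the means over the same genes was 0.012, so the medians and the means differed in sign. On single arrays, the mean of the pro-death genes minus that of the anti-death genes, each relative to its VEH mean, was 0.62, -0.46 and -0.12 in CET replicates 1, 2 and 3, against -0.03, 0.29 and -0.26 in VEH replicates 4, 5 and 6. The CET arrays lay above, below and among the VEH arrays, with an SD of 0.55 in CET and 0.28 in VEH. The difference of medians was 0.26 without CET replicate 2, 0.14 without VEH replicate 4 and -0.70 without VEH replicate 6, so its sign depended on single arrays. Genes with separate groups were found in both classes, all of them higher in CET (5.07% of all genes): TNFSF10, FASLG, APAF1 and BCL2L14, or 4 of 21 pro-death genes, and BIRC2 and BIRC7, or 2 of 10 anti-death genes.

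**Figure D3:**
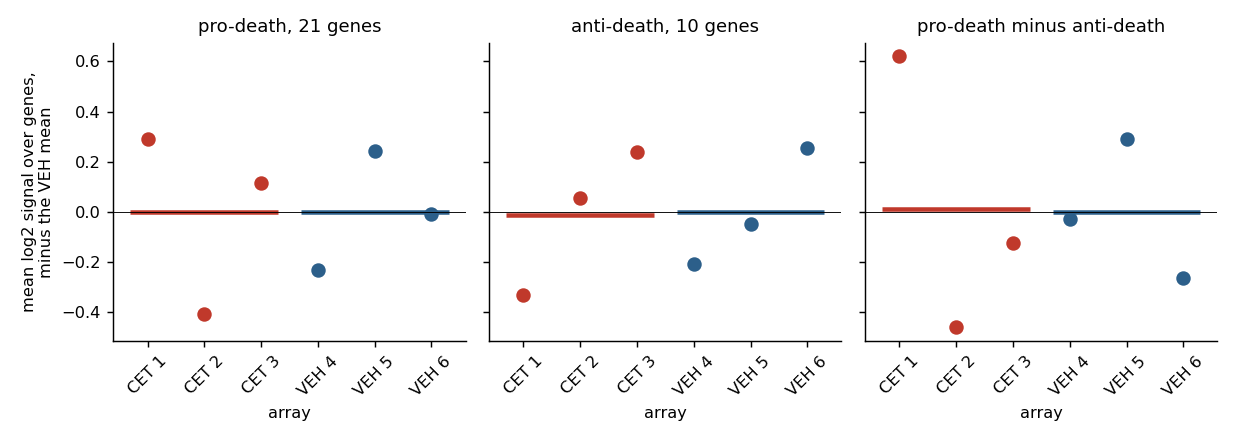
Mean log2 signal of the 21 pro-death genes, of the 10 anti-death genes and their difference on each array (y axis, relative to the VEH mean), with CET arrays in red left of VEH arrays in blue and the group means as lines. The CET differences run from -0.46 in replicate 2 to 0.62 in replicate 1 and enclose all VEH arrays, and the group means differ by 0.012.

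**Figure D4:**
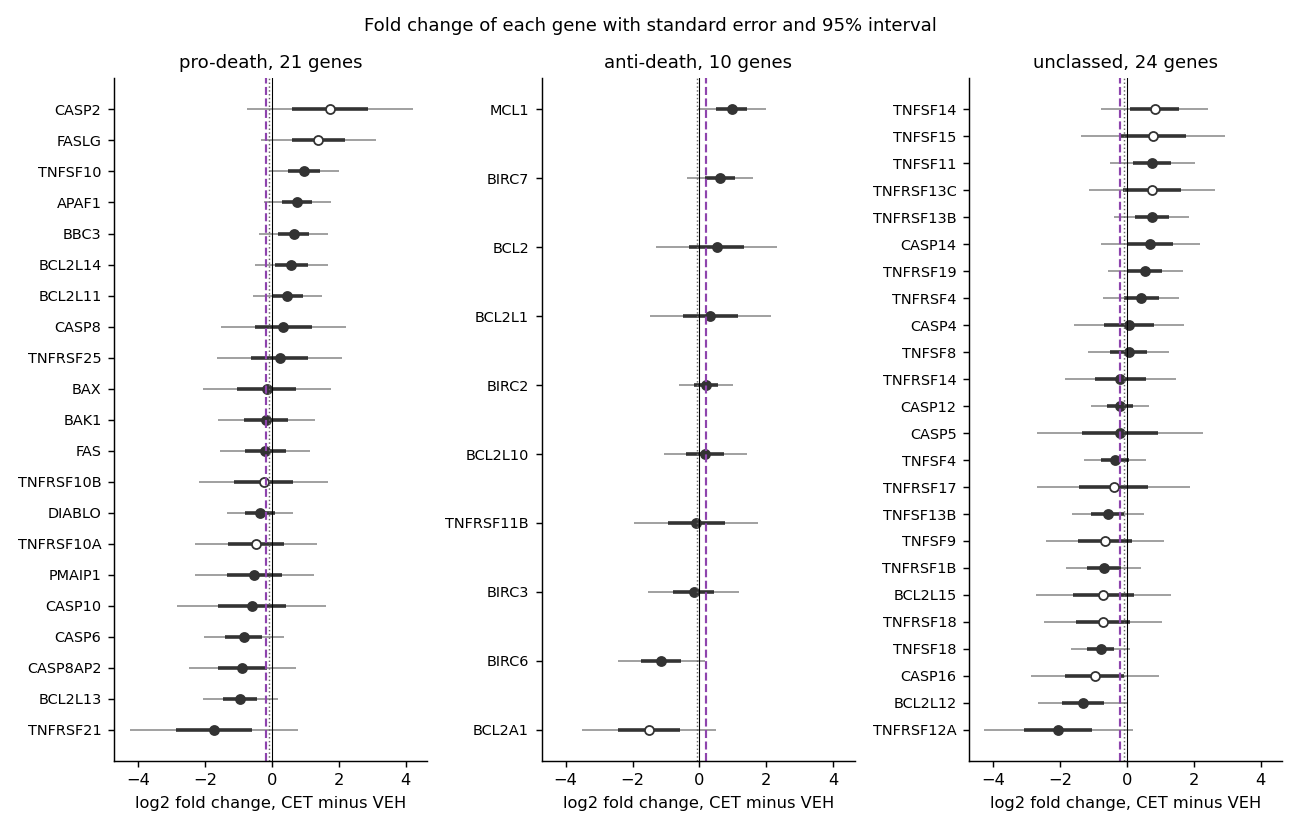
Fold change (CET minus VEH, log2) of all 55 genes by class, with the SE (dark line) and the 95% interval (grey line), open symbols for dim probe sets, the class median (dashed) and the median of all genes (dotted, -0.08). Every interval includes 0, and the class medians are -0.17 for pro-death, 0.19 for anti-death and -0.21 for unclassed genes.

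Several probe sets represented 27 of the 55 genes, and they often disagreed. Of the 50 probe sets that were not the brightest of their gene, 26 had a fold change of the same sign as the brightest and 24 of the opposite sign. TNFSF10, separate at its brightest probe set with 0.96, had fold changes of -0.36, -2.86 and 0.27 at the others, of which the last 2 were dim. MCL1 had -0.24 at its other probe set, which was above the dim limit, against 0.97 at the brightest. APAF1 had -0.21 at a bright and 0.12 at a dim probe set. BCL2L11, with 0.47 at the brightest, had -0.42 and -0.36 at both others above the dim limit. For BIRC2, whose 4 probe sets were all above the dim limit, the values were 0.20, -0.85, -0.89 and 0.24, so 2 of the 4 pointed each way. The dim second probe set of CASP4 had -2.50, against 0.06 at the brightest. Other genes held their direction: TNFRSF13B had 0.74, 0.79 and 0.43, all above the dim limit. TNFRSF19 had 0.55, 0.65 and 0.17, the last of them dim. TNFRSF1B had -0.70 at its brightest probe set and -0.60 and -1.16 at the others, which were dim. TNFSF18 held its direction only above the dim limit, with -0.78 and -0.62, against 1.30 at its dim probe set. Over the mean of all its probe sets the fold change of TNFSF18 was -0.036. BCL2L12, BBC3, FASLG, CASP6, DIABLO and TNFRSF12A had a single probe set, so no second reading was at hand.

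**Figure D5:**
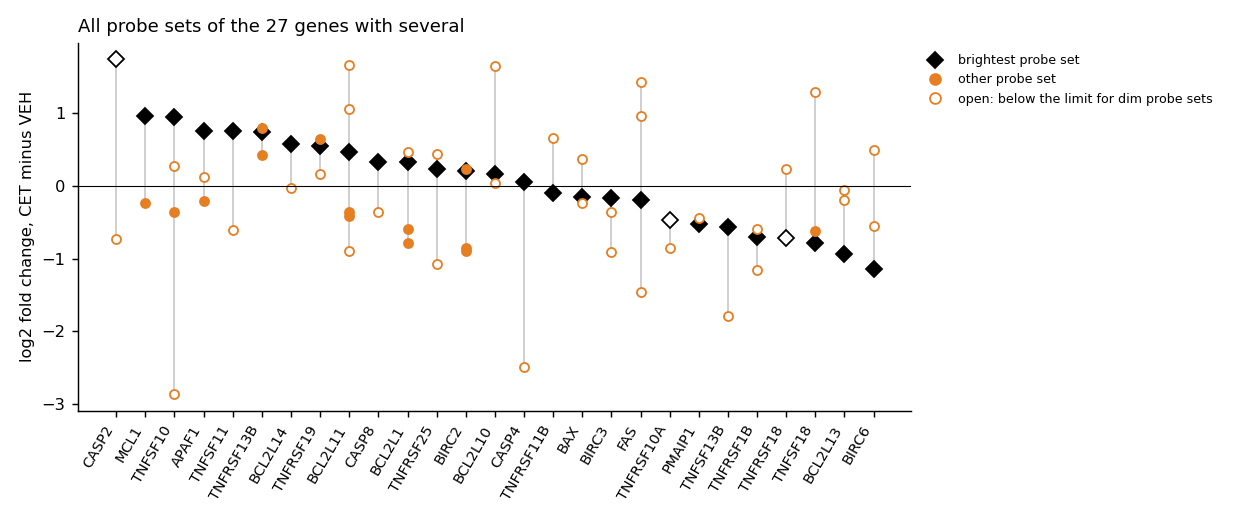
Fold change (CET minus VEH, log2) at every probe set of the 27 genes with several, ordered by the value at the brightest probe set (black diamond), with the others as circles and dim ones open. TNFSF10 runs from -2.86 to 0.96 and CASP4 from -2.50 to 0.06, whereas the 3 probe sets of TNFRSF13B all lie above 0.

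The partners of these families outside the rule were read from a list of 62 genes, of which 45 had a probe set. Of these, the CET mean was the higher in 23 and the lower in 22, with a median of 0.09, and 2, both lower, lay under an unadjusted limma p of 0.05 (4.44%, all genes 5.03%). They were PDCD5, a gene linked to apoptosis, with a fold change of -1.63 ± 0.67 and an adjusted p of 0.827, and BAG4, which silences death domains, with -1.09 ± 0.49. Groups were separate in 3 of the 45 (6.67%, all genes 11.5%), BAG4 lower and BOK and NFKBIA higher in CET. BOK, a relative of BAX and BAK1, had a fold change of 0.94 ± 0.46, and its groups were separated by only 0.06. NFKBIA, the inhibitor that retains NF-kappaB in the cytoplasm, had a fold change of 1.45 ± 0.72 and a gap of only 0.09. It read 9.36, 9.61 and 8.73 in CET, against 6.17, 8.53 and 8.64 in VEH, where VEH replicate 4 alone was low. TNF itself, the ligand that gave the family its name, was dim with a fold change of 0.85 ± 0.79, and CFLAR, the inhibitor of CASP8, had 0.13 ± 0.67.

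Since several ligands and receptors are known from immune cells, marker lists of other cell types were read on the same arrays. Of 11 lymphocyte and pan-leukocyte markers, 7 had a probe set, and their summed signal was 5418 to 5856 in CET and 7737 to 9018 in VEH, without overlap. GZMB, a granule protease of cytotoxic cells, had log2 signals of 11.93, 11.69 and 12.11 in CET, against 12.71, 12.61 and 12.77 in VEH. Without GZMB the sum of the other 6 markers was 1439 to 2113 in CET and 1469 to 2325 in VEH, with overlap. Of the 7 markers 3 had the higher mean in CET (CD79A at 0.69, MS4A1 at 0.33 and CD8A at 0.12), and the median was -0.10. FASLG and TNFSF14 were higher and TNFSF18 lower in the same CET arrays, and the part of lymphocytes in these values was not tested. CD3D, CD3E, CD3G and CD2 had no probe set of a single symbol, and no defining marker was at 0. The 8 of 10 macrophage markers with a probe set summed to 11476 to 13840 in CET and 6479 to 12892 in VEH, with overlap. LYZ weighed heavily on these sums, since it alone ran from 7.15 to 13.09 (log2) in CET and from 8.23 to 12.75 in VEH. Of these 8 markers, 4 had the higher and 4 the lower mean in CET. The 9 endothelial markers summed to 15795 to 26088 in CET and 16429 to 22201 in VEH, also with overlap. The 6 steroidogenic markers were all lower on average in CET, with STAR, which carries cholesterol into the mitochondrion, at -1.49 ± 0.53 (limma, adjusted p = 0.827), and their part in the values of the 55 genes was not tested.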

How the data were processed

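Probe sets of Affymetrix rhesus macaque arrays were measured in 3 CET and 3 VEH samples of CL. The deposited intensity values are MAS5 signals on a linear scale, which the authors had scaled: the 2% trimmed mean was 500 on every array. The MAS5 version is not given in the sources used here, nor are detection calls. Signals under 1 were set to 1, log2 values were quantile-normalized between the 6 arrays, and 52707 probe sets were tested, without the 158 controls. Of these, 24956 had a single symbol in the platform annotation and could be named, 361 had several and 27390 had none. The groups were compared with limma (version 3.58.1, R 4.3.3), an intensity trend and Benjamini-Hochberg adjustment over all probe sets, two-sided. The fit was first tested on simulated data. The number of arrays limits the precision. CL of both groups are described as coming from the same monkeys, but no label names the animal of a sample. The fit was unpaired and ignored any such pairing, so p-values and intervals measure the spread between these samples only.

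The 55 genes, their classes and the lists of partners and markers were chosen with earlier results of these data known. Genes with per-array values were the 6 in each direction with the smallest p above the dim limit, a core list of both death pathways and the 5 brightest, and other genes were added after their values were seen. Alternatives were signals without normalization, array medians subtracted, a pseudocount of 16, dim probe sets left out, limma without the trend, the methods' t-test, the mean over probe sets of a gene, a covariate for the 3′ to 5′ ratio, and leaving out each array. Some genes of the core list are not reported here.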

Additional observations from a re-analysis of the deposited data

How the results depend on the processing

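No paired analysis was possible because CET samples are numbered 1 to 3 and VEH samples 4 to 6, so that no number is shared. Under every alternative fitted to single probe sets, 0 passed the adjusted p of 0.05, with 1696 (without VEH replicate 5) to 6997 (without CET replicate 1) under an unadjusted p of 0.05. The number of the 55 genes under an unadjusted p of 0.05 was 2 without normalization between arrays (all genes 6.05%), 3 with array medians subtracted (7.7%), 2 without the intensity trend (3.91%), 6, or 10.9%, by the methods' t-test (5.28%; TNFSF10, TNFSF14, TNFSF18, FASLG, APAF1 and BCL2L12), 2 with the mean over probe sets (6.11%) and 0 to 11 when an array was left out, the highest without CET replicate 1. The number with separate groups was 11 to 27 when an array was left out, while the share over all genes was 17.4% to 36.6%. The median of the 55 was 0.017 without normalization, -0.041 with a covariate for the 3′ to 5′ ratio and -0.17 to 0.13 when an array was left out. The pro-death median ran from -0.34 to 0.42 when an array was left out, the anti-death median from -0.10 to 0.35, and their difference from -0.70 to 0.26. The anti-death median was -0.015 with array medians subtracted. The median of all genes was -0.08 as reported and -0.20 with array medians subtracted.

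Of the 55 genes, 33 kept their direction under all of the 14 alternatives that gave a value (15 higher and 18 lower in CET), and 22 did not, 20 of them when an array was left out and 15 under another setting. Fold changes can differ from the reported ones in only 11 of the 14, and the mean over probe sets is the same value for the 28 genes with a single probe set. Without normalization, the fold change was -0.22 for BIRC2, 0.067 for CASP5, 0.057 for TNFRSF10B, 0.028 for TNFRSF11B and 0.017 for TNFRSF14. With array medians subtracted, it was -0.42 for BIRC2 and -0.14 for CASP4. With the mean over probe sets, it was -0.14 for BCL2L1, -0.33 for BIRC2, -1.22 for CASP4, -0.013 for CASP8, 0.18 for FAS, 0.28 for TNFRSF11B, -0.14 for TNFRSF25 and -0.50 for TNFSF10. With the covariate, it was 0.0018 for BAX, -0.086 for BCL2L1, 0.026 for BIRC3, 0.29 for PMAIP1, 0.61 for TNFRSF11B and -0.092 for TNFSF8. When an array was left out, values ran from -0.73 to 0.34 for BAK1, -1.04 to 0.56 for BAX, -0.18 to 1.16 for BCL2, -0.41 to 1.18 for BCL2L1, -0.071 to 0.29 for BCL2L10, -0.64 to 0.19 for BIRC3, -1.80 to 0.74 for CASP10, -0.70 to 0.64 for CASP4, -1.07 to 1.37 for CASP5, -0.62 to 0.86 for CASP8 and -0.38 to 0.14 for FAS. They ran from -1.11 to 0.42 for PMAIP1, -1.19 to 0.0020 for TNFRSF10A, -0.91 to 0.45 for TNFRSF10B, -1.10 to 0.58 for TNFRSF11B, -0.52 to 0.37 for TNFRSF14, -1.31 to 0.44 for TNFRSF17, -0.69 to 0.83 for TNFRSF25, -0.18 to 1.43 for TNFSF15 and -0.14 to 0.31 for TNFSF8. The cause was not tested.

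Signals of dim probe sets, 13 of the 55, have no detection calls to tell signal from background, and the median SE of a fold change was 0.675 over the 55.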
